A study of Mus musculus with 32 samples.

Results

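Nicotinamide riboside (NR), a dietary precursor of NAD+, was compared with vehicle in the kidney cortex of male control mice by bulk RNA sequencing. The comparison held 8 of the 32 mice of the series, 4 NR-treated and 4 vehicle-treated, taken by their labels, and was described across all genes. All 8 were 25-week-old males of the strain C57BL/6J-Col4a3tm1Dec with the genotype Col4a3+/-, so that the controls were heterozygous carriers of the Alport mutation and not wild-type mice. NR was given at 0.5% (w/w) in a purified diet from 10 to 25 weeks of age, and vehicle-treated mice received the purified diet alone. The other 24 mice were males and females of both genotypes under both treatments, and male Alport mice (Col4a3-/-) and female control mice are used below beside the male control response.

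NAD+ is the electron acceptor of fatty acid oxidation and the citric acid cycle, and sirtuins, PARPs and CD38 consume it. NR is phosphorylated by the NR kinases to nicotinamide mononucleotide, which is then turned into NAD+. The proximal tubule, which makes up most of the cortex, lives largely on fatty acids. PPARα, as a heterodimer with RXR and with PGC-1α as a coactivator, induces the enzymes of fatty acid oxidation. SREBP2 induces cholesterol synthesis when sterols are scarce, and NRF2 induces antioxidant and conjugating enzymes. The comparison asks what NR does to the cortex in the absence of Alport disease.

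Libraries held 19667200 to 26314137 counts in NR-treated and 21833587 to 27433134 counts in vehicle-treated mice, a difference that did not pass an exact permutation test (two-sided, p = 0.229 with 4 against 4 mice, where the smallest possible p is 0.0286). Mitochondrial transcripts took 15.7% ± 0.61 (SD, n = 4) of the counts with NR and 14.6% ± 0.47 with vehicle (exact permutation test, two-sided, p = 0.0571, 0.171 after adjustment over the 3 library measures tested). The first principal component of the 8 libraries, 42.0% of their variance, placed the vehicle-treated mice between −35.1 and −13.9 and the NR-treated replicates 1 to 4 at 50.6, 17.8, 34.5 and −2.62, so that NR-treated replicate 4 lay nearest to the vehicle-treated mice. The nephron markers of the cortex were present in every mouse, with *Slc34a1* and *Lrp2* (proximal tubule) at 3611 to 5641 and 1498 to 2185 CPM (counts per 1000000 counts of the TMM-scaled library) in NR-treated mice, *Slc12a3* (distal convoluted tubule) at 672 to 1034, *Umod* (loop of Henle) at 2242 to 3523 and the podocyte gene *Nphs1* at 23 to 32.9. The male genes *Ddx3y* and *Uty* were detected in all 8 mice. The adipocyte markers *Adipoq* and *Ucp1* and the adrenal marker *Cyp11b1* did not reach the count filter. Per-mouse values below are CPM in the order of replicates 1 to 4, and levels of different genes are not compared, since CPM is not scaled by length.

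Of 14696 genes tested, 666 (4.53%) differed between NR-treated and vehicle-treated mice at an adjusted p under 0.05 (edgeR quasi-likelihood test, Benjamini-Hochberg). NR raised 451 genes (3.07%) and lowered 215 (1.46%), and 152 of the former (1.03%) and 55 of the latter (0.374%) changed at least 2-fold, 207 (1.41%) in all. The shares of 4.53% called, 3.07% higher and 1.46% lower are the background for the list counts of this comparison below. The 4 NR-treated mice lay above all 4 vehicle-treated mice for 1084 genes (7.38%) and below them for 887 (6.04%). The median log2 fold change (log2FC) over all genes tested was −0.000225. The number of changed genes depended on single mice, being 74 without vehicle-treated replicate 1, 114 without vehicle-treated replicate 2, 146 without vehicle-treated replicate 4, 429 without vehicle-treated replicate 3, 184 without NR-treated replicate 3, 230 without NR-treated replicate 1 and, at the other end, 1886 when NR-treated replicate 4 was left out. Of the 133 changed genes that the naming rule took, 35 passed the threshold in all 8 fits that left out 1 mouse and 98 lost it in at least 1 of them, all of these 98 without vehicle-treated replicate 1 and none without NR-treated replicate 4. In bulk cortex, fewer cells of a type and less RNA per cell cannot be told apart.

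**Figure D1:**
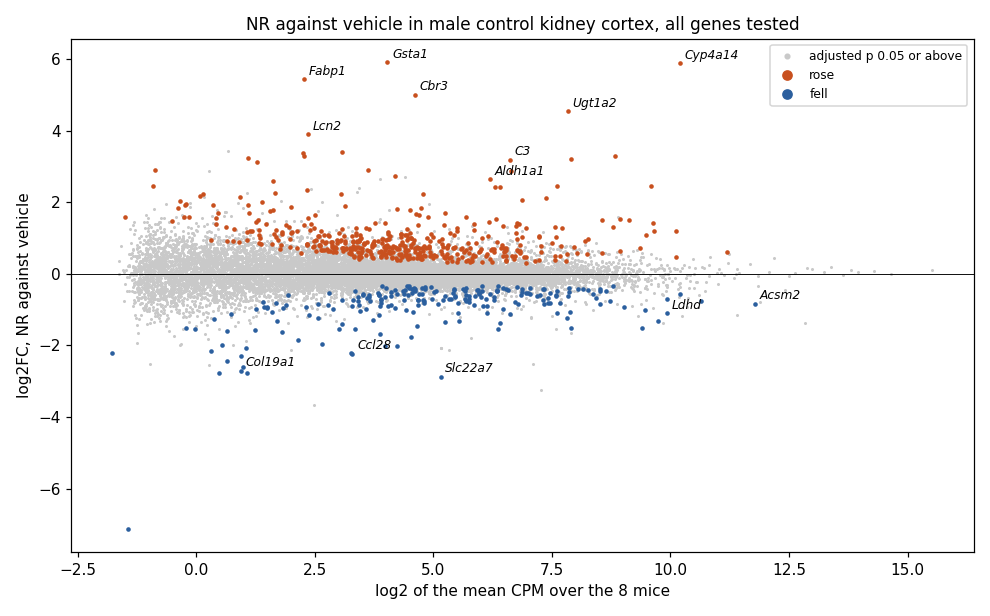
The log2FC of NR against vehicle (vertical axis) is plotted against the log2 of the mean CPM over the 8 mice (horizontal axis) for the 14696 genes tested, with genes that rose in orange, genes that fell in blue and the rest in grey. *Gsta1* (5.91) and *Cyp4a14* (5.89) lie at the top, *Slc22a7* (−2.87) lies lowest among the labelled genes, and the point at the bottom left is *Gm3411*, which had no count in any NR-treated mouse, so that its fitted value is not a measure of size.

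Among the genes that passed the threshold, did not overlap between the groups and had a mean of at least 1 CPM, the highest log2FC was that of *Gsta1*, a glutathione S-transferase, which was at 0.411, 0.796, 0.627 and 0.244 CPM in vehicle-treated and 68, 5.0, 41.6 and 14.1 CPM in NR-treated mice (log2FC 5.91 ± 0.84, adjusted p = 0.00847). *Cyp4a14*, a fatty acid omega-hydroxylase, was at 21.6, 14.1, 101 and 20.8 CPM with vehicle and 2927, 1637, 2753 and 1969 CPM with NR (5.89 ± 0.66, 0.0026). Both genes were higher in each NR-treated mouse than in any vehicle-treated mouse, and the vehicle-treated replicate 3 stood above the other 3 for *Cyp4a14*. The liver fatty acid-binding protein *Fabp1* followed with a log2FC of 5.43 ± 0.91, the carbonyl reductase *Cbr3* with 5.0 ± 0.59, the glucuronosyltransferase *Ugt1a2* with 4.54 ± 0.51 and the iron-carrier-binding protein *Lcn2* with 3.90 ± 0.77. The smallest p belonged to *Aldh1a1*, a retinaldehyde dehydrogenase, at 18.5, 16.9, 24.1 and 21.2 CPM with vehicle and 131, 123, 141 and 109.5 CPM with NR (2.65 ± 0.13, 1.16e-05). *Aldh1a1*, *Gsta1*, *Cyp4a14*, *Cbr3* and *Ugt1a2* kept the call in all 8 fits that left out 1 mouse, and *Fabp1* and *Lcn2* lost it in at least 1, at an adjusted p of up to 0.0859 (*Lcn2*, without vehicle-treated replicate 2).

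In the same set, the lowest log2FC was that of *Slc22a7*, the organic anion transporter OAT2, at 55.3, 45.3, 81.7 and 68.4 CPM with vehicle and 2.83, 23, 2.62 and 6.15 CPM with NR (−2.87 ± 0.59, 0.0291). It was followed by the collagens *Col6a6* (−2.77 ± 0.65) and *Col19a1* (−2.71 ± 0.44), *Gm5717* (−2.59 ± 0.49), the adhesion molecule *Cntnap5a* (−2.43 ± 0.39), *4930502E18Rik* (−2.29 ± 0.51), the chemokine *Ccl28* (−2.23 ± 0.24) and the annexin *Anxa13* (−2.21 ± 0.31). *Ccl28* went from 14.1, 21.9, 17.9 and 10.7 CPM to 3.83, 3.97, 2.3 and 3.71 CPM, with no overlap (adjusted p = 0.00237). *Col6a6*, *Col19a1*, *Gm5717*, *Cntnap5a* and *4930502E18Rik* were weakly expressed, at no more than 6.5 CPM in any of the 8 mice. *Ccl28*, *Cntnap5a* and *Anxa13* kept the call in all 8 fits that left out 1 mouse, and *Slc22a7*, *Col6a6*, *Col19a1*, *Gm5717* and *4930502E18Rik* lost it in at least 1, at an adjusted p of up to 0.12 (*Col6a6*, without vehicle-treated replicate 4).

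Among the targets of PPARα that respond to fasting and build lipid droplets, 12 of 27 genes tested rose and 1 fell, beside 4.53% of all genes tested, and the median log2FC was 0.69. *Acot1*, a cytosolic acyl-CoA thioesterase, went from 48.3, 38, 112 and 40.6 to 530.2, 261, 370.5 and 159 CPM (2.47 ± 0.43, 0.0173). *Pdk4*, the kinase that shuts pyruvate dehydrogenase, was at 18.9, 19.6, 34.7 and 24.7 CPM with vehicle and 269.6, 43.5, 175 and 43 CPM with NR (2.44 ± 0.56, 0.0394). The NR-treated mice were above the vehicle-treated mice for both genes, but for *Pdk4* replicates 1 and 3 carried most of the rise. *Ucp2*, an inner-membrane carrier, rose by 1.27 ± 0.16, *Mgll*, the monoacylglycerol lipase, by 1.07 ± 0.17, *Vnn1*, the pantetheinase, by 1.04 ± 0.17, the lipid droplet coat *Plin2* by 0.64 ± 0.15 and the transcription factor *Creb3l3* by 3.37 ± 0.80. No value for the hormone *Fgf21* is given, as it did not reach the count filter. *Angptl4*, an inhibitor of lipoprotein lipase, missed the threshold at 1.21 ± 0.33 (adjusted p = 0.0683), and *Gpt2*, a mitochondrial alanine aminotransferase, fell (−0.48 ± 0.11, 0.0435). *Ucp2* kept the call in all 8 fits that left out 1 mouse, and *Acot1*, *Pdk4*, *Mgll*, *Vnn1*, *Plin2*, *Creb3l3* and *Gpt2* lost it in at least 1, at an adjusted p of up to 0.134 (*Plin2*, without vehicle-treated replicate 2). Of this list 1 gene rose without vehicle-treated replicate 1, 1 without vehicle-treated replicate 2, 4 without vehicle-treated replicate 4, 6 when NR-treated replicate 3 was left out and 7 for replicate 1 of that group. The count was 14 when NR-treated replicate 4 was left out.

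Peroxisomal β-oxidation shortens very long and branched acyl chains, and 7 of its 24 genes tested rose and 0 fell (median log2FC 0.26). Of the 24 genes 8 lay wholly above the vehicle range and 3 wholly below it (7.38% and 6.04% of all genes tested did). DESeq2 called 10 higher and 3 lower. *Ehhadh*, the bifunctional hydratase and dehydrogenase, was at 633, 601, 803 and 681 CPM with vehicle and 1650.5, 1572, 1631 and 1353 CPM with NR (1.19 ± 0.12, 0.0012). *Acaa1b*, a peroxisomal thiolase with a close paralog in *Acaa1a*, rose by 1.42 ± 0.15 (0.00173), *Hacl1*, which cleaves 2-hydroxy acyl chains, by 1.34 ± 0.20 (0.00985) and *Pex11a*, a factor of peroxisome division, by 0.72 ± 0.11 (0.0105). *Ehhadh*, *Acaa1b*, *Hacl1* and *Pex11a* kept the call in all 8 fits that left out 1 mouse.

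In the carnitine shuttle and mitochondrial β-oxidation, 7 of 27 genes tested rose and 0 fell (median log2FC 0.28), and 22 had a log2FC above 0, where 7345 of all 14696 genes did. *Acsl1*, which activates long-chain fatty acids, was at 209, 196, 239 and 142 CPM with vehicle and 645, 481, 707 and 411 CPM with NR (1.51 ± 0.20, 0.00568). The NR-treated mice were all above the vehicle range. *Acaa2*, the mitochondrial thiolase, rose by 0.98 ± 0.15 (0.0102), *Eci1*, an enoyl-CoA isomerase, by 0.80 ± 0.15 (0.0223), *Decr1*, a dienoyl-CoA reductase, by 0.58 ± 0.11 (0.0233) and *Acadl*, the long-chain dehydrogenase, by 0.58 ± 0.12 (0.0322). *Acsl1* kept the call in all 8 fits that left out 1 mouse, and *Acaa2*, *Eci1*, *Decr1* and *Acadl* lost it in at least 1, at an adjusted p of up to 0.108 (*Acadl*, without vehicle-treated replicate 2). The gatekeeper *Cpt1a*, the carnitine palmitoyltransferase of the outer membrane, was at 683, 734, 643 and 569 CPM with vehicle and 590.4, 619.6, 648 and 605 CPM with NR (−0.09 ± 0.10, 0.598). The medium-chain dehydrogenase *Acadm* was at 658, 597, 823 and 634 and 742, 1081, 640.5 and 832 CPM (0.28 ± 0.16, 0.332), with NR-treated replicate 2 highest and replicates 1 and 3 within the vehicle range. Without vehicle-treated replicates 1, 2 or 4 the count of mitochondrial genes that rose was 1, 2 and 2, and without NR-treated replicates 1 or 3 it was 3 in both cases. The peroxisomal count was 4 without any 1 of these 5 mice.

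Of 14 Cyp4 omega-hydroxylase genes tested, 3 rose and 0 fell. Beside *Cyp4a14*, these were *Cyp4a10* at 161, 125, 501 and 175 CPM with vehicle and 1616, 1059.9, 1388 and 1175 CPM with NR (2.45 ± 0.40, 0.0141) and *Cyp4a12b* (1.81 ± 0.24, 0.00568). The Cyp4a genes are near-identical neighbours, and how reads were divided among them is not given in the sources used here, so the single-gene values are uncertain. The thioesterases and acyl-CoA synthetases moved both ways, with 7 of 25 higher and 3 lower. *Acsl3* rose by 1.14 ± 0.11 (0.000933) and *Acsf2* by 1.59 ± 0.26 (0.0147), and the mitochondrial medium-chain synthetases *Acsm2* (−0.83 ± 0.19, 0.0356) and *Acsm3* (−1.52 ± 0.30, 0.0254) fell. *Cyp4a12b* and *Acsl3* kept the call in all 8 fits that left out 1 mouse, and *Cyp4a10*, *Acsf2*, *Acsm2* and *Acsm3* lost it in at least 1, at an adjusted p of up to 0.113 (*Acsm2*, without vehicle-treated replicate 2). In the fits without 1 mouse the number of Cyp4 genes that rose ranged from 2 (without vehicle-treated replicates 1 or 4) to 4 (without vehicle-treated replicate 3 or NR-treated replicate 4), that of thioesterases and synthetases that rose from 2 (without vehicle-treated replicates 1, 2 or 4) to 8 (without NR-treated replicate 4) and that fell from 0 (without vehicle-treated replicates 1, 2 or 4) to 5 (without NR-treated replicate 4).

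No call was made among the regulators themselves. Of 19 genes tested of the PPAR, RXR and PGC-1 list 0 passed the threshold in edgeR, with 2 at an unadjusted p under 0.05, 1 in DESeq2 and 0 in limma-voom. *Ppara* was at 86.8, 96.1, 96.2 and 76.4 CPM with vehicle and 61.5, 90.1, 72.6 and 96.2 CPM with NR (−0.15 ± 0.14, 0.56), *Ppargc1a*, which encodes PGC-1α, at 74.4, 76.6, 73.7 and 61.8 and 67.3, 57.7, 73.1 and 87 CPM (−0.01 ± 0.12, 0.978), and *Rxra* at 174, 176, 177 and 144 and 159.8, 178, 147 and 173 CPM (−0.03 ± 0.10, 0.895). The ranges of the groups overlapped for all 3.

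**Figure D2:**
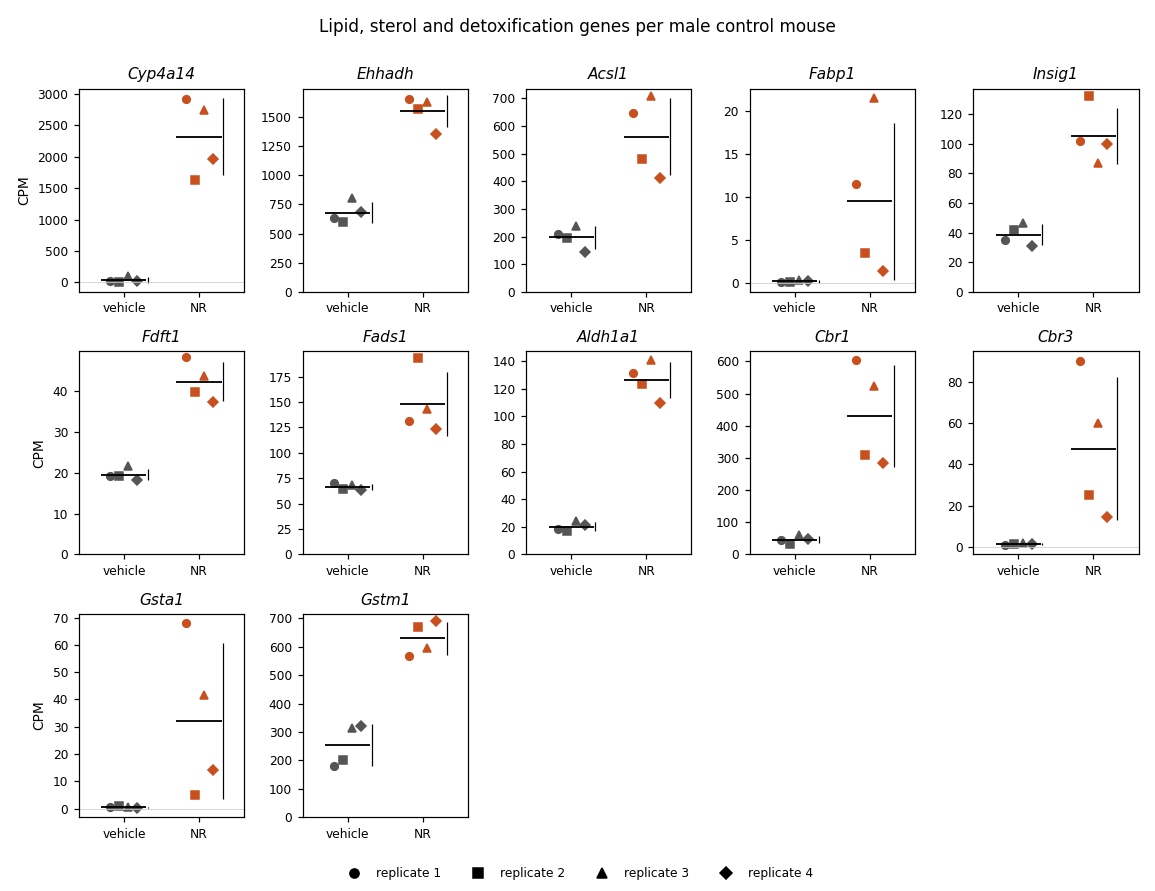
Each panel shows the CPM of 1 gene in the 4 vehicle-treated (grey) and 4 NR-treated (orange) male control mice, with the symbol marking the replicate number, a horizontal line at the group mean and a vertical bar of 1 SD on either side. For all 12 genes shown, every NR-treated mouse lies above every vehicle-treated mouse. The vehicle-treated replicate 3 (triangle) is highest of its group for several genes, among them *Cyp4a14*, *Ehhadh*, *Acsl1*, *Insig1*, *Aldh1a1*, *Cbr1* and *Cbr3*.

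Vehicle-treated replicate 3 stood above the other vehicle-treated mice in several of these genes. It held 101 CPM of *Cyp4a14* against 14.1 to 21.6 in the others, and 501 CPM of *Cyp4a10* against 125 to 175. In both cases it stayed below the lowest NR-treated mouse.

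The genes of SREBP2, which make and take up cholesterol, rose in the largest proportion of the lipid lists examined, 15 of 27 tested with 0 lower (median log2FC 0.54). *Insig1*, which retains the SREBP complex in the endoplasmic reticulum, was at 35, 42, 46.4 and 31.2 CPM with vehicle and 102, 132, 86.8 and 99.6 CPM with NR (1.44 ± 0.15, 0.00195). *Msmo1*, a sterol methyl oxidase, was at 11.1, 14.9, 15.4 and 15.8 CPM with vehicle and 32.9, 37.1, 39.4 and 38.1 CPM with NR (1.37 ± 0.12, 0.000745). No NR-treated mouse fell into the vehicle range for either gene. Along the pathway, *Fdft1* (squalene synthase) rose by 1.11 ± 0.10, *Sqle* (squalene epoxidase) by 0.71 ± 0.12 and *Srebf2*, the gene of SREBP2, by 0.49 ± 0.07 (0.0102).

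*Hmgcs1*, the cytosolic synthase at the head of the pathway, was at 498, 587, 499 and 609 CPM with vehicle and 380.0, 536, 538 and 596 CPM with NR (−0.10 ± 0.14, 0.715). The ranges of the groups overlapped. The count of SREBP2 genes that rose was 8 without vehicle-treated replicate 1 and 12 to 15 in the other 7 fits without 1 mouse. *Insig1*, *Fdft1* and *Msmo1* kept the call in all 8 fits that left out 1 mouse, and *Sqle* and *Srebf2* lost it in at least 1, at an adjusted p of up to 0.0673 (*Sqle*, without vehicle-treated replicate 1).

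In fatty acid synthesis and desaturation, 7 of 26 genes tested rose and 1 fell. *Fads1*, the Δ5 desaturase, was at 70.3, 64.6, 67.9 and 63.3 CPM with vehicle and 131, 193, 143 and 123 CPM with NR (1.15 ± 0.13, 0.00302), and *Elovl6*, which elongates palmitate, at 18.8, 20.7, 20.1 and 18 and 46.7, 35.9, 42.6 and 30.6 CPM (1.0 ± 0.13, 0.00541). *Scd1*, the stearoyl-CoA desaturase, rose by 1.39 ± 0.32 (0.0404). *Srebf1* rose (0.69 ± 0.13, 0.0202) and *Mlxipl*, the carbohydrate-response factor ChREBP, fell (−0.73 ± 0.13, 0.019). *Fasn*, the fatty acid synthase, missed the threshold (0.46 ± 0.15, 0.111), although the groups did not overlap. Of 21 apolipoprotein, LXR-target and lipoprotein genes tested, 3 rose, the receptor *Lrp1* (0.71 ± 0.12) and the transfer proteins *Pltp* (0.94 ± 0.17) and *Mttp* (0.49 ± 0.11), and 1 fell, the lipoprotein lipase *Lpl* at 515, 518, 305 and 519 CPM with vehicle and 235, 340.1, 214 and 258 CPM with NR (−0.83 ± 0.19, 0.0405). *Abca1*, the cholesterol exporter, was at −0.14 ± 0.17 (0.649). *Fads1* and *Elovl6* kept the call in all 8 fits that left out 1 mouse, and *Scd1*, *Srebf1*, *Mlxipl*, *Lrp1*, *Pltp*, *Mttp* and *Lpl* lost it in at least 1, at an adjusted p of up to 0.121 (*Lpl*, without vehicle-treated replicate 2). The number of fatty acid synthesis genes that rose ranged in those fits from 2 (without vehicle-treated replicates 1, 2 or 4 or NR-treated replicate 1) to 10 (without NR-treated replicate 4), and that of apolipoprotein and lipoprotein genes from 0 (without vehicle-treated replicate 1) to 7 (without NR-treated replicate 4).

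Glutathione S-transferases, which conjugate electrophiles to glutathione, rose in 11 of 22 genes tested with 0 lower (median log2FC 0.62). *Gstm1* was at 181, 200.4, 312 and 323 CPM with vehicle and 567, 668, 596 and 690.0 CPM with NR (1.31 ± 0.19, 0.00874), *Gsta3* at 86.2, 90.1, 124 and 139 and 294, 234, 322 and 233 CPM (1.30 ± 0.17, 0.00631) and *Gsta2* at 200.5, 192, 317 and 309 and 811, 513, 841 and 762 CPM (1.52 ± 0.21, 0.00735). All 4 NR-treated mice were above the vehicle range in each. *Gsta1*, *Gsta2*, *Gsta3* and *Gstm1* kept the call in all 8 fits that left out 1 mouse. Gsta paralogs are close in sequence and their division of reads is uncertain.

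Of the NRF2 antioxidant and reductase targets, 11 of 38 tested rose and 0 fell (median log2FC 0.39). *Cbr1*, a carbonyl reductase, was at 44.1, 32.9, 59.2 and 48.6 CPM with vehicle and 603, 311, 523 and 284 CPM with NR (3.22 ± 0.27, 0.000745). Its neighbour *Cbr3* went from 0.822, 1.38, 2.01 and 1.67 to 90.2, 25.3, 60.2 and 14.4 CPM (5.0 ± 0.59, 0.0034), and *Abcc3*, an exporter of conjugates, from 1.42, 0.833, 1.67 and 1.91 to 21.8, 8.3, 15.7 and 16 CPM (3.41 ± 0.32, 0.000933). *Nqo1*, the quinone reductase, rose to 117 to 222 from 40.6 to 83.6 CPM (1.42 ± 0.25, 0.0181), *Tkt*, the transketolase, by 0.76 ± 0.09 and *Hmox1*, the heme oxygenase, by 0.78 ± 0.19 (0.0488). *Cbr1*, *Cbr3*, *Abcc3* and *Tkt* kept the call in all 8 fits that left out 1 mouse, and *Nqo1* and *Hmox1* lost it in at least 1, at an adjusted p of up to 0.144 (*Hmox1*, without vehicle-treated replicate 2). *Gclc*, the catalytic subunit that limits glutathione synthesis, was at 268, 199, 219 and 548 CPM with vehicle and 334, 346, 263 and 240.1 CPM with NR (−0.06 ± 0.29, 0.925), with vehicle-treated replicate 4 highest of the 8. In the fits that left out 1 mouse, the glutathione S-transferase count ranged from 5 (without vehicle-treated replicates 1, 2 or 4 or NR-treated replicate 1) to 12 (without NR-treated replicate 4), with 6 without NR-treated replicate 3, and the NRF2 count from 5 (without vehicle-treated replicates 1 or 2) through 6 (when vehicle-treated replicate 4 or NR-treated replicate 3 was left out) and 7 (without NR-treated replicate 1) to 19 (without NR-treated replicate 4).

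Retinoid and drug metabolism showed rises in single enzymes. Of 32 aldehyde and retinoid genes tested, 7 rose and 1 fell, with *Aldh1a7*, a relative of *Aldh1a1*, at 1.28 ± 0.14 (0.0026), the retinal reductase *Rdh11* at 0.65 ± 0.10 (0.012) and *Cyp26b1*, which degrades retinoic acid, at 10.7, 4.81, 17.6 and 5.16 CPM with vehicle and 65, 19, 66.1 and 30.3 CPM with NR (2.24 ± 0.49, 0.0336). *Ugt1a2* was at 17.6, 14.4, 30 and 13.8 CPM with vehicle and 632, 122, 657 and 350.0 CPM with NR (4.54 ± 0.51, 0.00264), with replicate 2 lowest of the NR-treated mice. The Ugt1a genes share their last exons, so that *Ugt1a2*, *Ugt1a1* (1.83 ± 0.23) and *Ugt1a10* (1.08 ± 0.26) may share reads. *Ugt2b38*, of another glucuronosyltransferase family, fell from 998, 1158, 754 and 1077 to 159.7, 473, 212 and 549 CPM (−1.52 ± 0.35, 0.0405). Of 29 Cyp2 and other xenobiotic genes tested 3 rose and 1 fell (13.8% beside 4.53% of all genes), among them *Cyp2d26* (1.30 ± 0.19), the nuclear receptor *Nr1i3* (CAR, 2.23 ± 0.39) and *Cyp2f2* (−0.69 ± 0.11). *Aldh1a7*, *Ugt1a2*, *Ugt1a1* and *Cyp2d26* kept the call in all 8 fits that left out 1 mouse, and *Rdh11*, *Cyp26b1*, *Ugt1a10*, *Ugt2b38*, *Nr1i3* and *Cyp2f2* lost it in at least 1, at an adjusted p of up to 0.132 (*Ugt1a10*, without vehicle-treated replicate 2). The number of aldehyde and retinoid genes that rose ranged from 2 (without vehicle-treated replicate 1) to 9 (without NR-treated replicate 4).

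The promoters of the changed genes were read for 3 motifs on both strands, from 250 bases before to 50 bases after the start (RefSeq, GRCm38.p6). Promoters were listed for 342 of the 451 genes that rose, 155 of the 215 that fell and 10909 of the 14696 tested. The direct repeat bound by PPAR and RXR (2 copies of AGGTCA spaced by 1 base) was in 0 of 443 promoters of genes that rose, where 0.0396% of all promoters held it. The antioxidant response element (TGACNNNGC) was in 16% of promoters of genes that rose, 14% of those of genes that fell, 14.1% of those of all genes tested and 12.4% of all promoters. The sterol regulatory element (ATCAC and CCAC spaced by 1 base) was in 0.677%, 0.518%, 0.201% and 0.234%, which for the genes that rose is 3 promoters, those of *Spp1*, *Aldoc* and *Srpx2* (named after their values were seen). The first pair of motifs can share the letters TGAC. A match is a string of letters and not a bound site, and the strict strings leave out looser versions. The promoters of *Gsta3*, *Ehhadh* and *Fabp1* are shown because all 3 genes rose and belong to the conjugation and PPARα lists, with the TGACNNNGC match in capitals, chr1:21240335-21240634 on the plus strand, chr16:21787785-21788084 on the minus strand and chr6:71199629-71199928 on the plus strand:
Gsta3: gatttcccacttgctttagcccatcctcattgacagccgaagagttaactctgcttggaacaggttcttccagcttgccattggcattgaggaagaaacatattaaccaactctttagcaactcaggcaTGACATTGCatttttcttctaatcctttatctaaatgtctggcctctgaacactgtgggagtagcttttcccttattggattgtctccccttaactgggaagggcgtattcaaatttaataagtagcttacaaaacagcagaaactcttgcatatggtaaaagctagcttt
Ehhadh: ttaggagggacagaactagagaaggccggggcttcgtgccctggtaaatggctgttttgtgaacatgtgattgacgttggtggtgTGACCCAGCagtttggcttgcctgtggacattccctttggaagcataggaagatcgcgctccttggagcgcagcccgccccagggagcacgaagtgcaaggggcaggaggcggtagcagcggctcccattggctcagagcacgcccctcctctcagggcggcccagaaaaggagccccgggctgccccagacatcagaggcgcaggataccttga
Fabp1: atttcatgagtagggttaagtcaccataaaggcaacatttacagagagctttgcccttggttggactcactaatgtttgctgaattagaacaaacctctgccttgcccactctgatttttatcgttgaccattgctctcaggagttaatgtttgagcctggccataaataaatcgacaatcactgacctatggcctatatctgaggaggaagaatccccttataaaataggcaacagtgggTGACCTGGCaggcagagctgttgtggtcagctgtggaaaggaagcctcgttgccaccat
The match begins 121 bases before the start of *Gsta3*, 165 before that of *Ehhadh* and 9 before that of *Fabp1*. A match was also in promoters of named genes that fell, such as *Acsm2* and *Hbb-bt*, or that did not pass, such as *Sirt1* and *Qprt*.

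Of 25 genes tested of NAD+ synthesis and NR handling, 1 rose and 0 fell, a share of 4% beside 4.53% of all genes. The gene that rose was *Kynu*, the kynureninase of the pathway from tryptophan, at 25.1, 21.9, 35.2 and 29.8 CPM with vehicle and 60.2, 33.8, 69.8 and 72.3 CPM with NR (1.08 ± 0.23, 0.0301). *Nmrk1*, the NR kinase of the kidney, was at 116, 118, 75.4 and 138 CPM with vehicle and 65, 85.5, 85.6 and 86.9 CPM with NR (−0.47 ± 0.17, 0.134), and *Nampt*, which salvages nicotinamide, at 213, 212, 218 and 208 and 242, 223, 235 and 262 CPM (0.18 ± 0.08, 0.207), while *Nmrk2* did not reach the count filter. *Naprt*, which starts the route from nicotinic acid, was at −0.02 ± 0.07 (0.923) and *Qprt*, which joins the tryptophan route to it, at −0.07 ± 0.11 (0.735). The NR-treated mice lay above the vehicle-treated mice for *Nampt* and within their range for *Nmrk1*, except replicate 1, which was below it. Of 22 genes that consume NAD+ or clear nicotinamide, 13.6% passed. Of these 2 rose, *Aox1* (1.91 ± 0.43), which oxidizes methylated nicotinamide, and *Bst1* (1.80 ± 0.44), an ADP-ribosyl cyclase, and 1 fell, *Parp3* (−0.48 ± 0.10). *Sirt1* (−0.20 ± 0.12, 0.35), *Sirt3* (−0.28 ± 0.10, 0.123), *Parp1* (0.02 ± 0.08, 0.902) and *Cd38* (0.61 ± 0.17, 0.0642) did not pass. *Kynu*, *Aox1*, *Bst1* and *Parp3* lost the call in at least 1 of the 8 fits that left out 1 mouse, at an adjusted p of up to 0.143 (*Bst1*, without vehicle-treated replicate 2).

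In central energy metabolism, of 27 citric acid cycle genes 0 passed in edgeR (median log2FC 0.01), with 4 at an unadjusted p under 0.05, 2 in DESeq2 and 0 in limma-voom. Of 77 nuclear subunits of the respiratory chain and ATP synthase 0 passed (0.24), with 9 at an unadjusted p under 0.05, 1 in DESeq2 and 0 in limma-voom, while 73 had a log2FC above 0, and of 13 mitochondrially encoded genes 0 passed (0.14), with 0 at an unadjusted p under 0.05, 0 in DESeq2 and 0 in limma-voom. The respiratory chain list overlapped between the groups, with per-mouse shifts from −0.31 to 0.19 with vehicle and from −0.14 to 0.44 with NR, where a shift is the median over a list of log2(CPM + 0.5) minus its mean in vehicle-treated mice. Without NR-treated replicate 4, 16 of its subunits rose. Of 32 glycolysis and gluconeogenesis genes tested 9.38% passed, beside 4.53% of all genes. *Hk1* (0.47 ± 0.11) and *Pfkp* (0.55 ± 0.13), the first and the committed kinase, rose, and *Ldhd*, the dehydrogenase of D-lactate, fell from 1317, 1373, 1269 and 1345 to 473, 909.8, 415 and 686 CPM (−1.09 ± 0.21, 0.0251). Of the ketone body list 2 of 10 rose, a share of 20%, among them the carrier *Slc16a1* (0.55 ± 0.13). The number of glycolysis genes that rose in the fits without 1 mouse ranged from 0 (without vehicle-treated replicates 1, 2 or 4 or NR-treated replicates 1 or 3) to 6 (without NR-treated replicate 4). *Hk1*, *Pfkp*, *Ldhd* and *Slc16a1* lost the call in at least 1 of the 8 fits that left out 1 mouse, at an adjusted p of up to 0.143 (*Pfkp*, without vehicle-treated replicate 2).

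The lists of stress and signalling genes differed in their share of calls. *Psat1* of serine synthesis (0.62 ± 0.14) was the only 1 of 24 ATF4-linked genes to rise, a share of 4.17% beside 4.53% of all genes, *Atf4* itself being at 0.11 ± 0.12 (0.612), and 0 of 27 chaperone and heat shock genes passed in edgeR, with 7 at an unadjusted p under 0.05, 2 in DESeq2 and 0 in limma-voom. *Gdf15*, a stress hormone, was at 2.74, 2.57, 4.93 and 5.89 CPM with vehicle and 72.6, 15.7, 6.91 and 5.73 CPM with NR (2.64 ± 0.77, 0.0791), highest in NR-treated replicate 1. Of 22 immediate early genes tested, 2 rose, *Klf6* (0.72 ± 0.14) and *Atf3*, at 0.228, 0.434, 0.543 and 0.772 CPM with vehicle and 11.8, 2.58, 2.21 and 1.03 CPM with NR (3.12 ± 0.74, 0.0435), a share of 9.09%, and the median log2FC was 0.71. The list was shifted by 1.34 in NR-treated replicate 1 and by −0.04 in replicate 4. Of 20 clock genes 2 fell (10%), *Ciart* (−0.99 ± 0.24) and *Rora* (−0.40 ± 0.09), and of 15 glucocorticoid-response genes 3 rose, among them *Sgk1* (1.53 ± 0.37) and the cell-cycle inhibitor *Cdkn1a* (1.22 ± 0.27), and 1 fell, *Errfi1* (−0.92 ± 0.17), an inhibitor of the EGF receptor, 26.7% in all. In the fits without 1 mouse, the immediate early genes that rose ranged from 0 (without vehicle-treated replicates 1, 2, 3 or 4) to 9 (without NR-treated replicate 4), the clock genes that fell from 0 (without vehicle-treated replicates 1, 2 or 4 or NR-treated replicates 1 or 3) to 5 (without NR-treated replicate 4) and the glucocorticoid-response genes that rose from 0 (without vehicle-treated replicates 1, 2, 3 or 4 or NR-treated replicates 1 or 3) to 7 (without NR-treated replicate 4). *Psat1*, *Klf6*, *Atf3*, *Ciart*, *Rora*, *Sgk1*, *Cdkn1a* and *Errfi1* lost the call in at least 1 of the 8 fits that left out 1 mouse, at an adjusted p of up to 0.134 (*Sgk1*, without vehicle-treated replicate 2).

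Androgen-dependent and male-biased kidney genes had the lowest median of the gene lists. Of 22 tested, 0 rose and 4 fell, 10 lay wholly below the vehicle range (6.04% of all genes tested did), and the median log2FC was −0.87. Beside *Slc22a7*, the genes that fell were *Acsm3*, at 301, 414, 353 and 356 CPM with vehicle and 135, 209, 65.3 and 88.4 CPM with NR (−1.52 ± 0.30, 0.0254), and the steroid dehydrogenases *Hsd3b2* (−1.12 ± 0.26, 0.0396) and *Hsd3b3* (−0.46 ± 0.11, 0.0466). The kidney androgen-regulated protein *Kap* and the organic anion transporter *Slco1a1* are named after their values were seen. *Kap* was at 10788, 9275, 11070.5 and 11355 CPM with vehicle and 1805, 8473, 1242 and 4771 CPM with NR (−1.38 ± 0.49, 0.13), and *Slco1a1* at 228, 376, 169 and 341 and 3.23, 104, 3.93 and 7.64 CPM (−3.24 ± 1.0, 0.0892). Neither passed the threshold, and for both, as for *Slc22a7*, NR-treated replicate 2 was highest of its group. *Acsm3*, *Slc22a7*, *Hsd3b2* and *Hsd3b3* lost the call in at least 1 of the 8 fits that left out 1 mouse, at an adjusted p of up to 0.13 (*Hsd3b3*, without vehicle-treated replicate 2). The summed level of the list was 19698 to 21814 CPM in vehicle-treated and 4733 to 16393 CPM in NR-treated mice. The count that fell was 13 without NR-treated replicate 2, 10 without NR-treated replicate 4, 2 without vehicle-treated replicate 3, 1 without NR-treated replicate 3 and 0 without vehicle-treated replicates 1, 2 or 4 or NR-treated replicate 1.

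Transport genes of the proximal tubule were lower in a few cases. Of 37 reabsorption transporters and receptors tested, 4 fell and 0 rose, 10.8% beside the 1.46% of all genes that fell. They were the phosphate carrier *Slc34a3* (−0.81 ± 0.14, 0.0149), the glucose carrier *Slc5a2* (−0.47 ± 0.10, 0.0321), the sodium-proton exchanger *Slc9a3* (−0.70 ± 0.17, 0.0444) and the flippase *Atp11a*, at 1233, 1284, 1063 and 1302 CPM with vehicle and 258, 796, 288 and 606 CPM with NR (−1.32 ± 0.32, 0.0444). Of 28 organic ion transporters 3 rose, among them *Slco2b1* (1.13 ± 0.16) and *Slc22a29* (1.28 ± 0.20), and 2 fell, *Slc22a7* and the ergothioneine carrier *Slc22a4* (−0.79 ± 0.15). Of the proximal tubule markers 1 of 27 rose, *Gatm* of creatine synthesis (0.72 ± 0.14), and 3 fell, *Slc5a2*, *Acsm2* and *Atp11a*. *Slc34a1* was at 6679, 7024, 6023 and 5697 CPM with vehicle and 3611, 5641, 4097 and 5098 CPM with NR (−0.46 ± 0.16, 0.112), not overlapping but short of the threshold, and *Lrp2*, the receptor megalin, at 2128, 2318, 2246 and 2372 and 1498, 2185, 1766 and 1989 CPM (−0.29 ± 0.12, 0.204). In the distal nephron 1 of 38 rose, *Sgk1*, and 1 fell, the calcium-binding *Pvalb* (−0.82 ± 0.19, 0.0387), and 0 of 14 renin-angiotensin and kallikrein genes passed in edgeR, with 4 at an unadjusted p under 0.05, 2 in DESeq2 and 0 in limma-voom. Of 19 vitamin D, calcium and phosphate genes 1 fell, *Slc34a3*, and of 38 amino acid, creatine and one-carbon genes 1 rose, *Gatm*, and 1 fell, *Gpt2*. The distal nephron list and these 2 lists each held 5.26% called, near the 4.53% of all genes tested. Of 29 growth factor genes 2 rose, the endothelial receptors *Flt1* (0.64 ± 0.09) and *Kdr* (0.42 ± 0.10), and 2 fell, *Vegfa* (−0.51 ± 0.11, 0.0307) and the receptor *Fgfr4* (−0.46 ± 0.11), 13.8% in all. *Slco2b1* kept the call in all 8 fits that left out 1 mouse, and *Slc34a3*, *Slc5a2*, *Slc9a3*, *Atp11a*, *Slc22a29*, *Slc22a4*, *Gatm*, *Pvalb*, *Flt1*, *Kdr*, *Vegfa* and *Fgfr4* lost it in at least 1, at an adjusted p of up to 0.132 (*Kdr*, without vehicle-treated replicate 1). In those fits the number of proximal tubule transport genes that fell ranged from 0 (without vehicle-treated replicates 1 or 2) to 6 (without NR-treated replicate 4).

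Genes of tubule injury, complement and matrix were higher in the NR-treated control mice. Of 28 injury and repair genes tested 10 rose and 0 fell (median log2FC 0.74). *Lcn2*, secreted by injured tubules, was at 0.959, 0.434, 0.752 and 0.447 CPM with vehicle and 22.3, 8.46, 6.73 and 1.07 CPM with NR (3.90 ± 0.77, 0.0253). *Vcam1*, an adhesion molecule, was at 8.04, 8.58, 5.89 and 7.03 CPM with vehicle and 14.9, 24.4, 19.4 and 12.4 CPM with NR (1.26 ± 0.21, 0.0146), and *Anxa2*, an annexin, at 20.2, 22.9, 22.8 and 23.7 and 43.5, 40.4, 35 and 31 CPM (0.74 ± 0.11, 0.0112). The lowest NR-treated mouse was replicate 4 for all 3 genes and it still lay above the vehicle range. *Havcr1*, which encodes KIM-1, was at 2.33, 2.61, 1.17 and 0.772 CPM with vehicle and 4.42, 18.8, 10.3 and 2.6 CPM with NR (2.38 ± 0.60, 0.0514), just short of the threshold. *Timp1*, an inhibitor of metalloproteases, rose by 2.92 ± 0.52 (0.019).

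Of 20 complement and fibrinogen genes tested 11 rose and 1 fell (median log2FC 0.91). *C3*, the central component, was at 18.2, 18.4, 22.2 and 19.4 CPM with vehicle and 246, 87.5, 324 and 53.8 CPM with NR (3.19 ± 0.49, 0.0117), highest in replicates 1 and 3. The inhibitor *Serping1* (1.11 ± 0.19, 0.0153) and the protease *C1s1* (0.76 ± 0.14, 0.0223) rose as well. The fibrinogen chains *Fgb*, at 0.731, 0.905, 1.38 and 0.528 CPM with vehicle and 17.4, 1.96, 14.5 and 1.26 CPM with NR (3.30 ± 0.81, 0.0473), *Fgg* (1.65 ± 0.39) and *Fga* (1.37 ± 0.32) rose too, and factor B, *Cfb*, fell (−0.35 ± 0.08), 4 genes named after their values were seen. Of 32 interferon-stimulated and MHC genes 0 passed in edgeR, with 17 at an unadjusted p under 0.05, 12 in DESeq2 and 0 in limma-voom, while 11 lay wholly above the vehicle range (7.38% of all genes tested did), and of 33 cell cycle genes 0 passed, with 4 at an unadjusted p under 0.05, 1 in DESeq2 and 0 in limma-voom.

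Among 36 extracellular matrix and fibroblast genes 16 rose and 0 fell (median log2FC 0.72). *Pdgfra*, a receptor of fibroblasts, was at 9.91, 13.4, 8.02 and 10.3 CPM with vehicle and 26.2, 18.2, 25.7 and 21.1 CPM with NR (1.13 ± 0.17, 0.0102). *Lox*, which crosslinks collagen, was at 1.05, 1.01, 1.17 and 1.1 CPM with vehicle and 5.91, 5.31, 7.54 and 2.06 CPM with NR (2.26 ± 0.36, 0.012), and *Ctgf*, a matricellular protein, at 42.7, 49, 30.7 and 49.2 and 97.4, 64.9, 100.2 and 83.9 CPM (1.01 ± 0.17, 0.0158). All NR-treated mice exceeded the vehicle range, *Lox* least in replicate 4. The summed level of the list was 619 to 669 CPM in vehicle-treated and 802 to 1106 CPM in NR-treated mice. The metalloprotease inhibitor *Timp2* rose by 0.73 ± 0.14 (0.0213).

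Of 20 type IV collagen and basement membrane genes 3 rose and 1 fell, 20% beside 4.53% of all genes. The numbers that rose and fell were 8 and 4 in DESeq2, 0 and 4 in a fit of all 32 mice, 8 and 4 without NR-treated replicate 4, 1 and 3 without vehicle-treated replicate 3, and 0 and 0 without any 1 of vehicle-treated replicates 1, 2 or 4 or NR-treated replicates 1 or 3. The glomerular collagen chain *Col4a4* fell from 262, 241, 212 and 186 to 95.2, 138, 117 and 162 CPM (−0.81 ± 0.16, 0.0272). *Col4a3*, the gene mutated in 1 copy in all 8 mice, was at 172, 167, 153 and 129 CPM with vehicle and 51.1, 80.9, 65.3 and 134 CPM with NR (−0.91 ± 0.25, 0.0675), below the vehicle range in replicates 1 to 3 and inside it in replicate 4. *Col4a5* was at −0.30 ± 0.10 (0.106). The perlecan gene *Hspg2* (0.50 ± 0.10) and the laminin chains *Lamc1* (0.49 ± 0.11) and *Lama2* (0.72 ± 0.18) rose. The podocyte gene *Nphs1* was at 0.04 ± 0.16 (0.894), and 0 of 20 podocyte markers passed in edgeR, with 4 at an unadjusted p under 0.05, 0 in DESeq2 and 0 in limma-voom. *Col4a4*, *Hspg2*, *Lamc1* and *Lama2* lost the call in at least 1 of the 8 fits that left out 1 mouse, at an adjusted p of up to 0.141 (*Lama2*, without vehicle-treated replicate 1).

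The cell type marker lists did not all move alike. Of 20 endothelial markers 13 rose and 0 fell (median log2FC 0.60), with a summed level of 713 to 758 CPM in vehicle-treated and 978 to 1256 CPM in NR-treated mice. *Pecam1*, the defining marker, was at 37.4, 36.6, 36.1 and 36.7 CPM with vehicle and 71.6, 56, 65 and 48.7 CPM with NR (0.72 ± 0.11, 0.012), and *Eng*, endoglin, at 67.5, 72.5, 70.3 and 74.2 and 114, 106, 109.5 and 105 CPM (0.61 ± 0.07, 0.0026). Of 21 immune markers 3 rose and 0 fell (14.3% beside 4.53% of all genes), *Cd14* (1.09 ± 0.23), *C1qa* (1.0 ± 0.21) and *C1qb* (0.89 ± 0.21). The pan-leukocyte marker *Ptprc* was at 7.9, 7.49, 6.52 and 9.42 CPM with vehicle and 8.5, 11.2, 7.9 and 9.59 CPM with NR (0.25 ± 0.15, 0.361), and the list summed to 181 to 206 CPM in vehicle-treated and 213 to 454 CPM in NR-treated mice. The proximal tubule markers summed to 46446 to 49911 CPM in vehicle-treated and 31186 to 46573 CPM in NR-treated mice, overlapping at the edge, with a median log2FC of −0.22. Of 11 loop of Henle markers 3 rose, *Bst1*, *Ptger3* (0.75 ± 0.17) and *Sostdc1* (0.58 ± 0.14), while *Umod* (0.14 ± 0.16, 0.634) and *Slc12a1* (0.47 ± 0.23, 0.245) did not pass, and the list summed to 4466 to 5894 CPM in vehicle-treated and 4219 to 6766 CPM in NR-treated mice. The adipocyte list, of which 4 genes were tested and 2 rose (*Fabp4*, 1.09 ± 0.26, and *Lipe*, 0.83 ± 0.18), summed to 45.8 to 48.7 CPM in vehicle-treated and 66.9 to 108 CPM in NR-treated mice, with *Adipoq* and *Ucp1* below the filter. Of 10 distal convoluted and connecting tubule markers 1 fell, *Pvalb*, of 16 collecting duct and medulla markers 0 passed in edgeR (with 6 at an unadjusted p under 0.05, 4 in DESeq2 and 0 in limma-voom), *Aqp2* being at 0.75 ± 0.24 (0.101), and of 6 muscle markers 0 passed (with 1 at an unadjusted p under 0.05, 1 in DESeq2 and 0 in limma-voom). Of 8 red blood cell markers 1 fell, *Hbb-bt* at 56, 56.8, 62.6 and 83.6 CPM with vehicle and 34, 29.5, 35.5 and 53.5 CPM with NR (−0.76 ± 0.19, 0.0496), and the list summed to 931 to 1365 CPM in vehicle-treated and 626 to 932 CPM in NR-treated mice. The part of these markers in the injury, complement and matrix values was not tested.

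The number of calls in these lists moved with single mice, while the medians moved less. Over the 8 fits without 1 mouse the median log2FC was 0.64 to 0.87 in the injury, 0.63 to 1.09 in the complement, 0.66 to 0.83 in the matrix and 0.52 to 0.64 in the endothelial list. Without vehicle-treated replicate 1, 0 injury, 2 complement, 0 matrix and 1 endothelial genes rose. Without vehicle-treated replicate 2 the counts were 2, 4, 4 and 5, without vehicle-treated replicate 3 they were 4, 5, 7 and 9, without vehicle-treated replicate 4 they were 2, 3, 6 and 5, without NR-treated replicate 1 they were 4, 4, 4 and 7, and when NR-treated replicate 3 was left out they were 3, 3, 4 and 6. Without NR-treated replicate 4 they were 19, 14, 22 and 15. *Eng* kept the call in all 8 fits that left out 1 mouse, and *Lcn2*, *Vcam1*, *Anxa2*, *Timp1*, *C3*, *Serping1*, *C1s1*, *Fgb*, *Fgg*, *Fga*, *Cfb*, *Pdgfra*, *Lox*, *Ctgf*, *Timp2*, *Pecam1*, *Cd14*, *C1qa* and *C1qb* lost it in at least 1, at an adjusted p of up to 0.147 (*Cfb*, without vehicle-treated replicate 2). Of the markers of other cell types, *Ptger3*, *Sostdc1*, *Fabp4*, *Lipe* and *Hbb-bt* lost the call in at least 1 of the 8 fits that left out 1 mouse, at an adjusted p of up to 0.131 (*Sostdc1*, without vehicle-treated replicate 2).

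**Figure D3:**
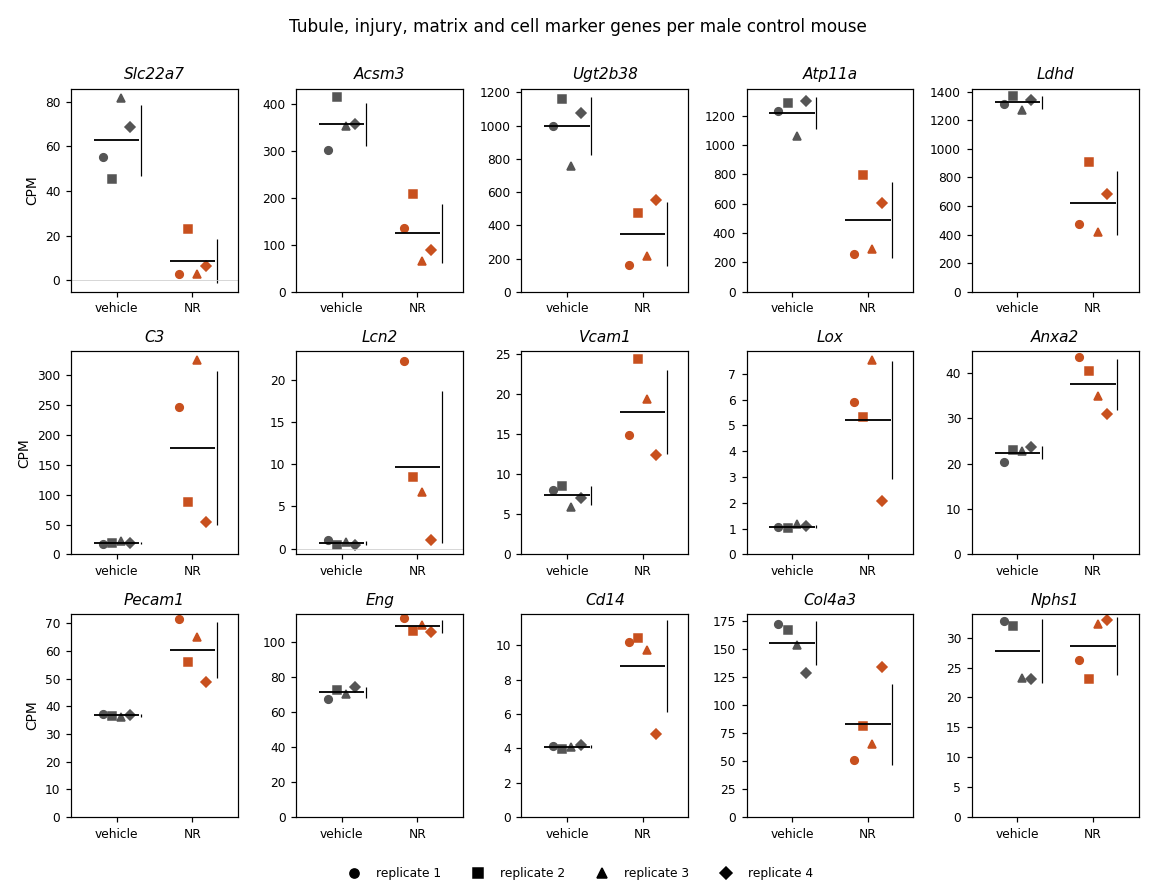
Each panel shows the CPM of 1 gene in the 4 vehicle-treated (grey) and 4 NR-treated (orange) male control mice, with the symbol marking the replicate number, a horizontal line at the group mean and a vertical bar of 1 SD on either side. The first 5 genes lie lower in every NR-treated mouse, the next 8 lie higher with replicate 4 (diamond) lowest of the NR-treated mice in each, and *Col4a3* and *Nphs1* overlap.

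The NR-treated mice did not rank alike from list to list. Replicate 4 had the smallest shift of the 4 in the injury list (0.24, against 0.90, 0.60 and 0.83 in replicates 1 to 3), the matrix list (0.22 against 0.81, 0.64 and 0.79) and the fasting-response list (0.28 against 0.83, 0.54 and 0.90). In the SREBP2 list replicate 4 was shifted by 0.61 and replicates 1 to 3 by 0.39, 0.65 and 0.52. Replicate 2 had the smallest shift of the male-biased genes (−0.29 against −1.26, −1.43 and −0.72 in replicates 1, 3 and 4) and the greatest of the immune markers (1.25 against 0.43, 0.38 and 0.18). Replicate 1 stood apart in the immediate early genes. These ranks are descriptions of 4 mice.

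**Figure D4:**
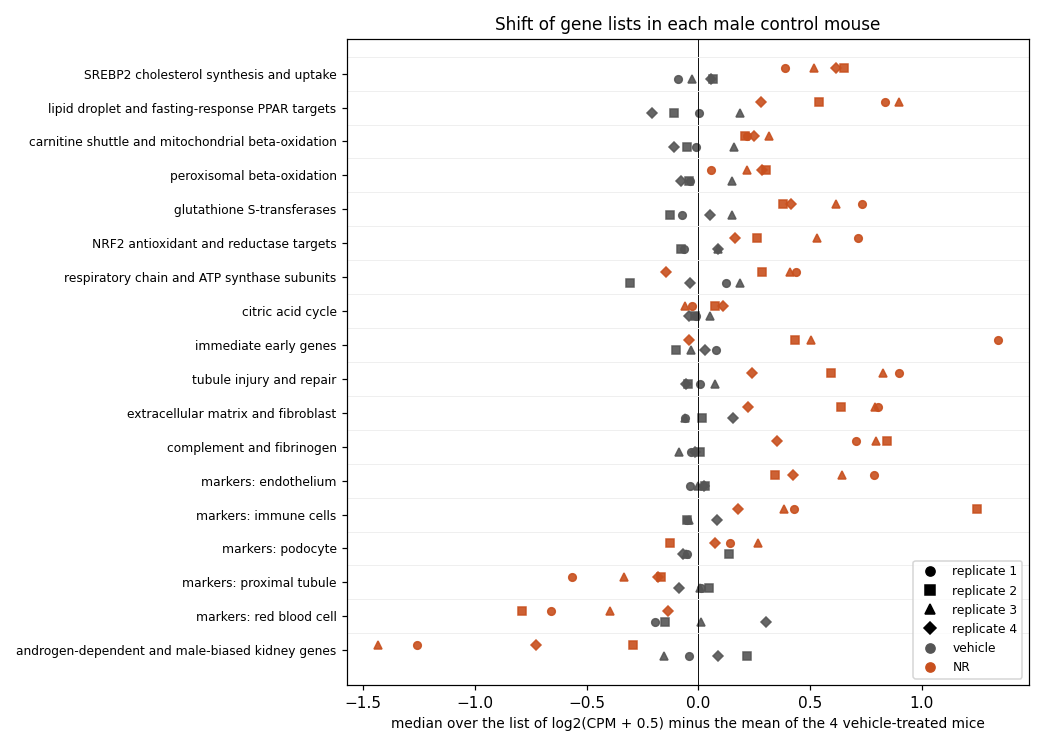
Each row is a gene list, and each symbol is 1 mouse at the median over the list of log2(CPM + 0.5) minus the mean of the vehicle-treated mice (vehicle in grey, NR in orange, symbol for the replicate number). In the SREBP2 list all 4 NR-treated mice lie at 0.39 or above and all 4 vehicle-treated mice at 0.07 or below, whereas in the respiratory chain list the 2 groups overlap.

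The response of male Alport mice shares no mouse with that of male controls and was set beside it. No gene of 15800 tested (0%) passed the threshold for a difference between the 2 responses in edgeR, with 1398 at an unadjusted p under 0.05, 18 passing in DESeq2 and 0 in limma-voom. The log2FC of 6 of the lipid and detoxification genes that rose in male controls is given for both genotypes. These 6 do not stand for the whole of their lists. *Ehhadh* was at 1.19 in controls and 1.65 ± 0.32 in Alport mice, *Cyp4a14* at 5.89 and 5.19 ± 0.66, *Insig1* at 1.44 and 1.82 ± 0.46, *Fdft1* at 1.11 and 1.27 ± 0.36, *Gsta1* at 5.91 and 5.68 ± 1.14, and *Gstm1* at 1.31 and 1.30 ± 0.24. In edgeR the Alport values did not pass on their own, at adjusted p of 0.394, 0.252, 0.706, 0.799, 0.443 and 0.394 in that order. In that fit no gene of 15500 tested (0%) passed, so these 6 are not set apart by it. Without NR-treated male Alport replicate 1, in a fit chosen after the data were seen, their Alport log2FC were 1.88, 5.47, 2.12, 1.48, 6.00 and 1.48. The median of the SREBP2 list was 0.54 in controls and 0.71 with the Alport genotype, and for the glutathione S-transferases the medians were 0.62 and 0.44.

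The complement and matrix lists had medians of opposite sign in the 2 genotypes, and the median of the injury list was near 0 in male Alport mice. The median of the matrix list was 0.72 in male controls and −0.37 in male Alport mice, that of the complement list 0.91 and −0.25, and that of the injury list 0.74 and −0.03. The test of this difference turned on 1 mouse, the NR-treated male Alport replicate 1. Its matrix genes summed to 8351 CPM, against 1965, 2545 and 2449.7 CPM in the other NR-treated and 3648 to 6459.7 CPM in the vehicle-treated male Alport mice. These sums use library totals without TMM scaling. Without NR-treated male Alport replicate 1, 782 of 15942 genes (4.91%) differed between the 2 responses, in a fit singled out after the data were seen. The log2FC in male controls was higher for 723 of them (4.54%) and lower for 59 (0.37%). They held 26 of 36 matrix, 11 of 22 complement, 10 of 28 injury, 13 of 28 immune, 8 of 20 endothelial and 0 of 27 SREBP2 genes, each with the higher log2FC in male controls. So were 14 of 32 interferon-stimulated and MHC and 6 of 20 type IV collagen and basement membrane genes. The same held for 4 of 33 aldehyde and retinoid and 3 of 25 apolipoprotein and lipoprotein genes, with 0 lower in each of these lists. The NRF2 list held 1 of 38, the glutathione S-transferases 1 of 22 and the peroxisomal list 0 of 25. Of 29 fasting-response genes 0 were higher and 1 was lower. The glucocorticoid-response list held 3 of 15 lower and the amino acid, creatine and one-carbon list 3 of 38, with 0 higher in both. *Abcc3* was at 0.78 in male Alport mice (difference 2.65 ± 0.49, adjusted p = 0.00713). *Vcam1* was then −1.54 in male Alport mice, a difference from male controls of 2.81 ± 0.48 (adjusted p = 0.00511), *C3* −0.61 (3.81 ± 0.59, 0.00348) and *Pdgfra* −0.42 (1.56 ± 0.30, 0.00851). With all 16 mice the same differences were 2.18 ± 0.60 (0.40), 3.26 ± 0.66 (0.40) and 1.15 ± 0.40 (0.456). No other single mouse left out of the 16 gave any gene past the threshold.

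Female control mice share no mouse with the male controls either. In their own fit 944 of 14951 genes (6.31%) passed, 619 higher (4.14%) and 325 lower (2.17%). Between the sexes 105 of 15379 genes (0.683%) differed in their response to NR, 49 with a higher log2FC in males (0.319%) and 56 with a lower one (0.364%). *Ugt1a2* rose by 4.54 in males and was at −0.40 ± 0.13 in females (4.93 ± 0.53 for the difference, adjusted p = 0.00072), and *Ugt1a1* was at 1.83 and −0.08 ± 0.09 (1.91 ± 0.25, 0.00417). *Cyp4a14* rose more in males, at 5.89 against 1.73 ± 0.22 (4.15 ± 0.66, 0.0127), as did *Cbr1* (3.22 against 1.17 ± 0.19, 0.0174 for the difference), *Abcc3* (3.41 against 0.62 ± 0.23, 0.0127), *Aldh1a1* (2.65 against 1.44 ± 0.19, 0.0455) and *Hacl1* (1.34 against 0.32 ± 0.07, 0.0473). *Cyp26b1* had opposite signs, 2.24 in males and −1.72 ± 0.34 in females (3.96 ± 0.66, 0.0167), and so did *Acsm3*, −1.52 and 1.11 ± 0.21 (−2.63 ± 0.41, 0.0105). The globin genes had a lower log2FC in male controls than in female controls, where they rose. *Hbb-bt* was at −0.76 and 1.53 ± 0.20 (−2.30 ± 0.32, 0.00532), *Hba-a1* at −0.50 and 1.35 ± 0.19 (−1.86 ± 0.28, 0.00865) and *Alas2*, the heme synthase of red cell precursors, at −0.51 and 1.27 ± 0.17 (−1.78 ± 0.31, 0.0192). Of these, *Hba-a1* and *Alas2* did not pass in male controls (0.0871 and 0.22). The median log2FC of the red blood cell list was −0.51 in male controls, 1.31 in female controls and 0.64 in male Alport mice. The negative median was thus not shared by both male groups, although no gene passed for a difference between them in edgeR.

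For the sterol genes the difference did not pass, with *Insig1* at 1.44 in males and 1.24 ± 0.13 in females (0.72 for the difference), *Fdft1* at 1.11 and 0.66 ± 0.09 (0.117) and *Msmo1* at 1.37 and 1.23 ± 0.16 (0.844), and 0 of the 27 SREBP2 genes passed in edgeR (10 at an unadjusted p under 0.05, 1 in DESeq2 and 0 in limma-voom). The medians of the injury, complement and matrix lists were 0.07, −0.02 and −0.00 in females, and 0 of their genes passed the test of the difference in edgeR. At an unadjusted p under 0.05 there were 14, 12 and 26, DESeq2 called 5, 6 and 9, and limma-voom called 0, 0 and 0. The count of 105 fell outside 1.5 times its value in most fits without 1 mouse, being 22 to 66 without any 1 of vehicle-treated replicates 1, 2 or 4 or NR-treated replicates 1 or 3 of the male controls or of 7 of the 8 female controls (98 without the vehicle-treated replicate 2), 336 without NR-treated male control replicate 2 and 677 without NR-treated male control replicate 4. It was 7 in a fit of all 32 mice.

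**Figure D5:**
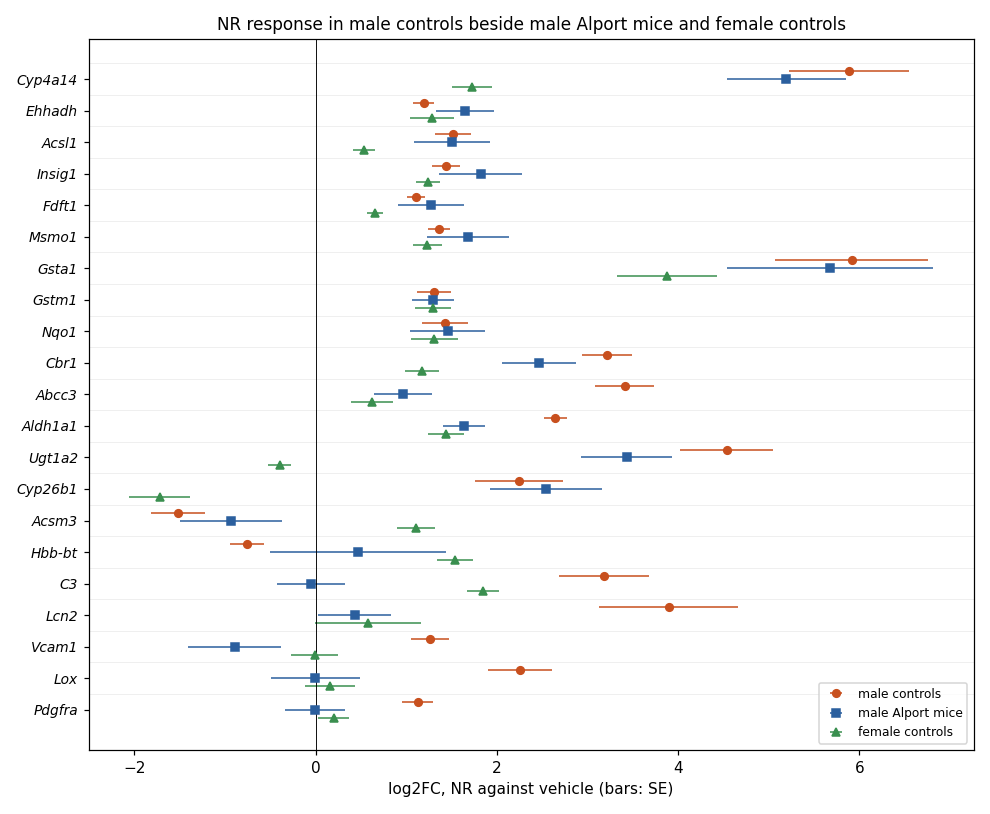
The log2FC of NR against vehicle with its SE (horizontal bars) is shown for 21 genes in male controls (orange circles), male Alport mice (blue squares) and female controls (green triangles), each from a fit of its own 8 mice. The sterol genes *Insig1*, *Fdft1* and *Msmo1* and *Gstm1* lie above 0 in the 3 comparisons. *Ugt1a2*, *Cyp26b1* and *Acsm3* lie apart in females, and *Hbb-bt* lies below 0 in male controls and above 0 in female controls. *Lcn2*, *Vcam1*, *Lox* and *Pdgfra* lie higher in male controls than in the other 2.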

How the data were processed

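Kidney cortex RNA from 32 separate mice, 4 per group in 8 groups, was poly(A)-selected and sequenced, with litters balanced across treatments. Per the labels, the authors deposited raw counts per gene symbol, with BioJupies and mm10 named in the submitters' processing notes. The aligner version, annotation and strand setting are not given in the sources used here. The deposited table of log-transformed CPM holds the same genes and was not used. No column of per-sample values was left unassigned.

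From the 8 male control libraries (19667200 to 27433134 counts, of 32544 genes in the table), genes were kept by filterByExpr (minimum count 10), scaled by TMM and tested with edgeR 4.0.16 (quasi-likelihood, Benjamini-Hochberg, adjusted p under 0.05) in R 4.3.3. Interactions with genotype and sex were fitted in 16 mice each. Errors beside log2FC are SE, and CPM of male controls were computed from the counts and the TMM-scaled library totals. The summed CPM of male Alport mice used library totals without TMM scaling. Alternatives were DESeq2 1.42.0, limma-voom (limma 3.58.1), other scalings and filters, 1 fit of all 32 mice, a replicate block and leaving out each mouse. The male Alport fit without replicate 1 was added after seeing the data. The scripts were tested on simulated data. Replicate numbers come from sample names and were checked for pairing. Libraries of one group differed by more than sampling noise (chi-square per degree of freedom 13.2 to 77.8).

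The members and gene lists were chosen with earlier results of these data known. Genes named are a set of tissue and pathway genes, up to 4 genes of smallest p per list, the 10 highest and 10 lowest log2FC among called genes without overlap and with a mean CPM of at least 1, and the 5 of smallest p per interaction, with exceptions stated. Promoter sequences come from RefSeq. Counts over a list include members that are not reported here by name.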

Additional observations from a re-analysis of the deposited data

Results flagged for a closer look

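In groups of 4 mice, a mouse was marked where its gap to the nearest other mouse, as a share of the group's range, was above Dixon's 95% critical value. Chance alone marks about 1 in 20 groups, and 26 of 346 groups were marked over the named genes and library measures. In 10 of these the mouse was vehicle-treated replicate 3. It was highest of its group for *Cyp4a14* (ratio 0.913), *Cyp4a10* (0.868), *Acot1* (0.862), *Hacl1* (0.836), *Decr1* (0.90), *Acadl* (0.849) and *Mgll* (0.846), which are enzymes of lipid oxidation and breakdown, and lowest for *Lpl* (0.982), *Mlxipl* (0.831) and *Vegfa* (0.849). NR-treated replicate 1 was highest for *Gdf15* (0.851), *Atf3* (0.856), *Hk1* (0.950) and *Bst1* (0.938) and lowest for *Nmrk1* (0.935). NR-treated replicate 4 was lowest for *Cd14* (0.874), *Lamc1* (0.874) and *Acsl3* (0.842). NR-treated replicate 2 was highest for *Slco1a1* (0.956) and *Col6a6* (0.915), and NR-treated replicate 3 was lowest for *Ccl28* (0.842). Vehicle-treated replicate 4 was lowest for *Ugt1a1* (0.925), *Col4a5* (0.906) and *Rxra* (0.903), and vehicle-treated replicate 2 was lowest for *Sostdc1* (0.853) and highest for *Hspg2* (0.938).

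The response of 22 genes named in the report differed between male and female controls (interaction in 16 mice, edgeR, adjusted p under 0.05). The log2FC in males exceeded that in females by 4.93 for *Ugt1a2*, 4.15 for *Cyp4a14*, 3.96 for *Cyp26b1*, 2.79 for *Abcc3*, 2.04 for *Cbr1*, 1.91 for *Ugt1a1*, 1.80 for *Slc22a29*, 1.2 for both *Aldh1a1* and *Kynu*, 1.02 for *Hacl1*, 1.01 for *Cyp2d26* and 0.85 for *Elovl6*. It was lower in males, with a difference of −3.61 for *Col19a1*, −2.63 for *Acsm3*, −2.57 for *Cntnap5a*, −2.30 for *Hbb-bt*, −2.03 for *Anxa13*, −1.86 for *Hba-a1*, −1.78 for *Alas2*, −1.24 for *Pvalb*, −1.09 for *Ldhd* and −0.93 for *Errfi1*. The globins *Hba-a2* (−2.14) and *Hbb-bs* (−2.05), close paralogs that were not described in the report, differed as well. The globin and *Alas2* differences are shared by markers of red blood cells, whose part in the other values was not tested.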

How the results depend on the processing

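The count of 666 genes changed by NR in male controls was 1641 in DESeq2 and 309 with a replicate block, and 74 to 1886 in fits that left out 1 mouse. With RLE or upper-quartile size factors, limma-voom, no count filter, a CPM filter or 1 fit of all 32 mice it stayed between 566 and 947. The difference between male controls and male Alport mice had 0 genes in edgeR, 18 in DESeq2, 1 in a fit of all 32 mice and 0 to 782 without 1 mouse, where 782 came without NR-treated male Alport replicate 1. The difference between male and female controls had 105 genes, 504 in DESeq2, 7 in a fit of all 32 mice, 61 with the replicate block and 22 to 677 without 1 mouse. Why these counts moved was not tested. The replicate numbers did not pair the mice: deviations of same-numbered mice correlated at 0.00806, −0.129, −0.0775 and 0.0664, so the block is no evidence of weaker effects. No named gene changed direction with a call under any alternative. Of the comparisons of a named gene's call outside the fits without 1 mouse, 1233 gave the same call, 107 lost it and 20 gained it, and over the fits without 1 mouse the numbers were 937, 409 and 14. Genes below about 1 CPM rest on few counts.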
